A study of Mus musculus with 6 samples.

Results

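Transcripts of 8 genes that make cholesterol or move it inside the cell were followed in mouse colonic crypts, the epithelial glands of the colon, after early injury and in adenomas. The genes were taken by name (Hmgcs1, Idi1, Fdps, Fdft1, Sqle, Cyp51, Msmo1 and Stard4), with every probe set that the platform's annotation gives to one of them alone. They held 19 probe sets, and were 8 of 12393 genes with a probe set of their own. Of the 19 probe sets, 15 lay above the median of their array on at least 2 arrays. The other 4 did not, namely the second one of Fdps, 1 of Cyp51 and a pair of Fdft1. All 8 genes kept at least 1 probe set and were among the 7456 genes tested. Of the 8, 7 encode enzymes of synthesis and Stard4 encodes a sterol transfer protein, so none is a receptor for uptake. The sterol sensor Insig1 had no probe set annotated to it alone and was not analysed here.

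Each group had 2 Affymetrix arrays, and each array carried RNA of crypts pooled from 2 mice. All mice were male and heterozygous for Lgr5-lacZ, a reporter at the gene of a crypt stem cell receptor. Control crypts came from the distal colon of untreated mice of 6 to 8 weeks, and DSS crypts from mice of the same age on day 2 of 1% dextran sulfate sodium in the drinking water, a polysaccharide that injures the colonic epithelium. Tumor crypts came from 12 pooled adenomas per array, 90 days after azoxymethane, a colon carcinogen, at 12.5 mg per kg. The injection was given at 6 to 8 weeks and was followed by DSS at 2, 1.5 and 1.0%, in cycles of 5 days with 14 days of plain water. The adenomas were therefore induced by chemicals, and the tumor mice were older at collection than the other mice.

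Cholesterol is built from acetyl-CoA through mevalonate, isoprenoids and squalene, and the sterol ring is then trimmed in the endoplasmic reticulum. The transcription factor SREBP2 switches on most of these enzymes when membrane sterol is low. Insig proteins, bound to its partner Scap, hold it back when sterol is high. Crypt cells divide and renew their membranes throughout life, and the intestine is one of the body's sites of sterol synthesis.

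The trimmed mean was near 500.2 on every array. Median intensities were 94.2 to 106 on the control and DSS arrays and higher on the tumor arrays, at 112 and 131. The labelled tissue matched its markers, since all 10 epithelial marker genes lay above the array median on every array, with Epcam between 11358 and 14732. The added poly-A controls, bacterial transcripts that track labelling, averaged 874 on control array 1 and 1314 on DSS array 1, against 351 to 443 on the other 4 arrays. Summed markers of other cell types were higher on array 2 of every group. For 10 fibroblast markers the sums were 2349 and 4851 in control, 3231 and 6029 in DSS, and 4652 and 14032 in tumor crypts. For 6 smooth muscle markers they were 605 and 3227, 1085 and 3081, and 353 and 1057. For 10 leukocyte markers they were 2074 and 2383, 1874 and 2454, and 5240 and 9880. A few genes carried much of the fibroblast and leukocyte sums in tumor crypts. Vim held 3477 and 6413 of the fibroblast sums there, against 287 and 800 in control. Of 8 fibroblast markers tested, 4 had changes above 0 and 4 below 0 in tumor against control crypts. Lyz2 measured 2755 and 5154 in tumor crypts, against 120 and 460 in control. Cd14 measured 2020 and 2645, against 1568 and 1270. The lymphocyte genes Cd3e and Cd79a were near background on all arrays, at no more than 34.0 and 15.0.

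Promoter sequence was available from RefSeq (build GRCm38.p6) for 4 of the 8 genes, namely Hmgcs1, Idi1, Cyp51 and Msmo1. The 250 bases before the start of Hmgcs1 and Msmo1 are shown, because Msmo1 is a synthesis enzyme that was called lower in tumor crypts and Hmgcs1 held the sterol element searched for. Hmgcs1 lies on the plus strand at chr13:119690101-119690350 and Msmo1 on the minus strand at chr8:64733579-64733828. Capitals mark the motifs searched on both strands, which do not overlap here: the sterol regulatory element core TCACNCCAC, the CCAAT box bound by NF-Y, and the GC box GGGCGG bound by Sp1.
Hmgcs1: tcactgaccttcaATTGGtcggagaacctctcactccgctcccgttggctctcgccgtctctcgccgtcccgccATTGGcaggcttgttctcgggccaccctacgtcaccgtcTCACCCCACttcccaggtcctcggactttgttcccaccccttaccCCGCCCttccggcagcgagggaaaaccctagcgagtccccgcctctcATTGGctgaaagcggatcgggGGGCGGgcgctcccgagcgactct
Msmo1: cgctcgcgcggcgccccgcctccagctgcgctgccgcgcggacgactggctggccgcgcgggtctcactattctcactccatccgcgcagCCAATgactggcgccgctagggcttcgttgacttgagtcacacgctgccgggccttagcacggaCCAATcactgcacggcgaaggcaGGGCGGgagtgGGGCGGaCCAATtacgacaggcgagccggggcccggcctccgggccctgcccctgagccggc
The sterol regulatory element core was found once in Hmgcs1, 137 bases before the start, and 0 times in the windows of Msmo1, Idi1 and Cyp51. It was present in 1.05% of the 32851 promoter windows of the same length. The CCAAT box occurred 3 times each in Hmgcs1 and Msmo1, 2 times in Idi1 and once in Cyp51, and was present in 33.8% of all windows. The GC box occurred 2 times each in Hmgcs1 and Msmo1 and once each in Idi1 and Cyp51, and was present in 32.7%. For the sterol element only TCACNCCAC was searched, so a window without a match may still hold another form of it. These matches describe letters in a window and were not tested for binding.

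In tumor crypts, Msmo1 and Stard4 were lower than in control crypts, by 1.53-fold and 1.75-fold, and the other 6 genes did not pass the test. Msmo1 encodes the oxidase that removes methyl groups from the sterol ring. Its intensities were 3314 and 4210.3 in control, 4112 and 3721 in DSS, and 2456 and 2430.4 in tumor crypts. Both tumor arrays lay below all 4 others. It fell by 0.61 ± 0.17 on the log2 scale against control (SE, 1.53-fold, limma adjusted p = 0.0345). Stard4 encodes a carrier that moves cholesterol between membranes, with the endoplasmic reticulum among its destinations. It measured 1405 and 1015 in control, 1613 and 1432 in DSS and then 762 and 598 in tumor crypts, again with both tumor arrays below the rest. It fell by 0.81 ± 0.21 against control (1.75-fold, limma adjusted p = 0.0286). Its other probe set, which measured 1105 and 896 in control crypts and 461 and 411 in tumors, fell by 1.16 ± 0.18 when each probe set was tested on its own. In bulk crypt RNA, fewer cells of a type and less RNA per cell cannot be told apart.

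**Figure D1:**
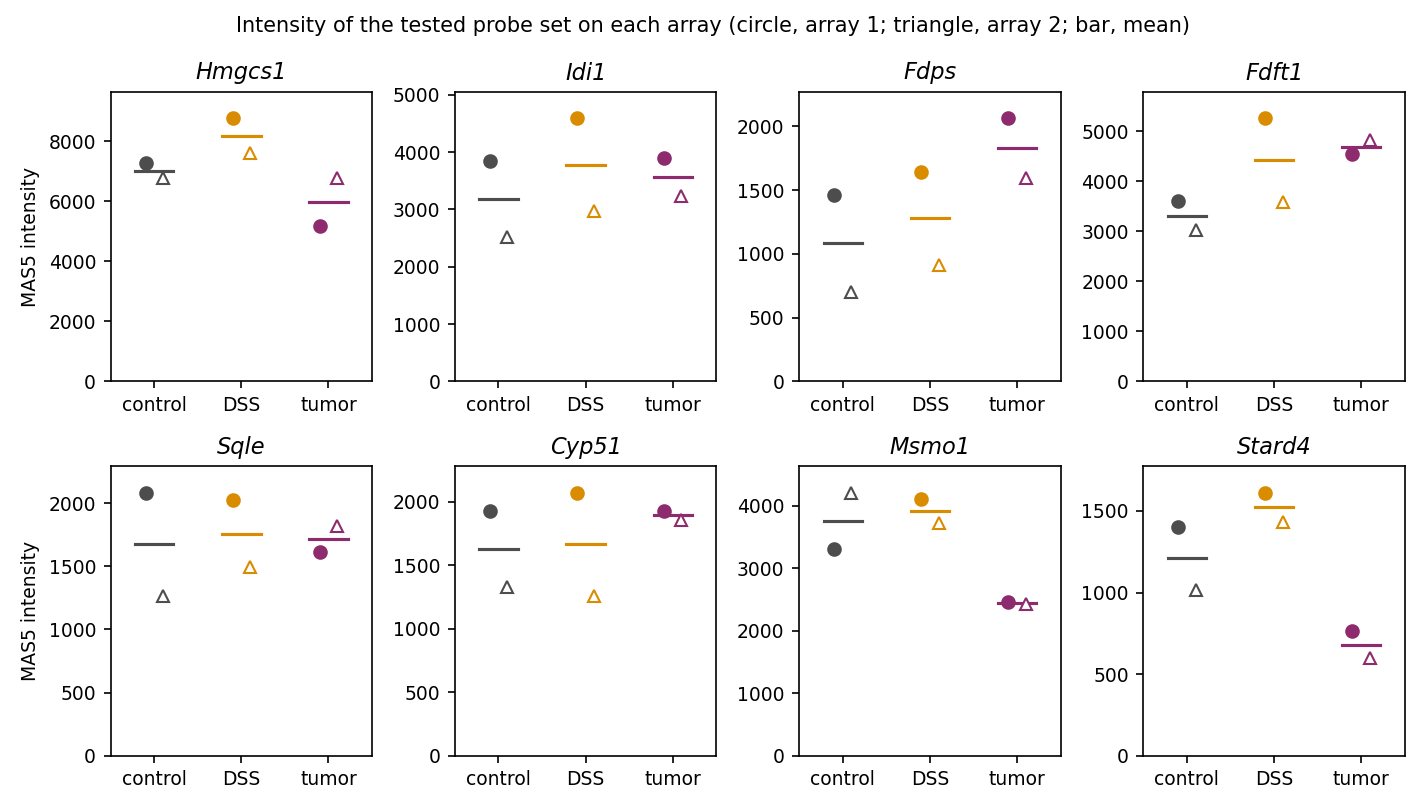
MAS5 intensity of the tested probe set of each of the 8 genes (linear axis from 0) in control, DSS and tumor crypts, with a filled circle for array 1, an open triangle for array 2 and a bar at their mean. Both tumor arrays of Msmo1 and of Stard4 lie below their other 4 arrays, and in control and DSS crypts array 1 lies above array 2 except for Msmo1 in control.

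The enzymes that lead to squalene did not pass the test in tumor crypts. Fdps makes farnesyl diphosphate, the branch point to sterols and to prenyl groups. It measured 1463 and 699.9 in control, 1643 and 915 in DSS, and 2062 and 1594 in tumor crypts. The tumor arrays lay above the control arrays, but the 2 control arrays differed by 1.04 on the log2 scale, and the change of 0.83 ± 0.37 had an adjusted p of 0.149. Fdft1, squalene synthase, commits farnesyl diphosphate to sterols. It measured 3612 and 3018 in control, 5257 and 3592 in DSS, and 4552 and 4827 in tumor crypts. Tumor and control arrays did not overlap, and its change of 0.50 ± 0.20 had an adjusted p of 0.115. On its other expressed probe set, which measured 1141 and 1019 in control crypts and 1502 and 1792 in tumors, the change was 0.60 ± 0.17 and passed when every probe set was tested on its own (limma adjusted p = 0.0456). The tested probe set carries the manufacturer's suffix for probes that may bind other transcripts, as does that of Hmgcs1. The tested one passed with quantile normalization (0.63, adjusted p = 0.0452) and with a term for the arrays of high poly-A controls (0.70, adjusted p = 0.0311).

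The remaining enzymes gave small changes with wide intervals. Hmgcs1, which makes HMG-CoA, measured 7294 and 6766 in control, 8771 and 7606 in DSS, and 5188 and 6795 in tumor crypts. Tumor and control arrays overlapped by a narrow margin, and the change of -0.24 had a 95% interval of -0.64 to 0.16. Idi1, the isomerase that readies isoprenoid units for joining, measured 3845 and 2521 in control, 4589.5 and 2965 in DSS, and 3894 and 3241 in tumor crypts. Its change was 0.19, with an interval of -0.42 to 0.80, and its other probe set gave -0.20. Sqle, squalene epoxidase, adds oxygen to squalene before the sterol ring is closed. It measured 2084 and 1267 in control, 2023 and 1490.2 in DSS, and 1611 and 1820.2 in tumor crypts. The tumor arrays lay between the control arrays, and the change of 0.07 had an interval of -0.52 to 0.66. Cyp51, the demethylase that opens the trimming of lanosterol, measured 1923 and 1329.9 in control, 2072 and 1259.7 in DSS, and 1928 and 1858 in tumor crypts. Its change of 0.24 had an interval of -0.37 to 0.85. These intervals allow changes in either direction, and for Idi1, Sqle and Cyp51 the sign turned when each array was centred on its median.

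Of the 8 genes, 0 were called higher and 2 lower in tumor against control crypts, where 12.9% and 9.75% of the 7456 genes tested were called. Tumor and control arrays did not overlap for 2 genes that were higher (Fdps and Fdft1) and 2 that were lower (Msmo1 and Stard4), and 33.8% and 27.7% of all genes tested showed such an order. The median change was 0.13 over the 8 genes and 0.05 over all genes tested. The Msmo1 call held in 9 of 19 alternative settings. It ended without control replicate 2 (-0.44, adjusted p = 0.192), tumor replicate 1 (-0.62, 0.0788) or tumor replicate 2 (-0.60, 0.124), and without either DSS array, which leaves its change as it was (adjusted p = 0.064 and 0.0618). The Stard4 call held in 16 of 19 and ended without control replicate 1 (-0.58), without tumor replicate 2 (-0.64) and with a term for the arrays of high poly-A controls (-0.65, adjusted p = 0.0665). With that term the Msmo1 call also ended (-0.66, adjusted p = 0.0515), and the 2 genes called were Fdps and Fdft1, both higher. Fdps passed with it at 1.30 (adjusted p = 0.00883) and without control replicate 1 (1.35, adjusted p = 0.0418). The summed epithelial markers were 73493 to 81259 in control and 72262 to 75452 in tumor crypts. Of the 10 markers, Krt18 rose by 0.63 ± 0.15 (adjusted p = 0.0218). The intestinal transcription factor gene Cdx1 fell by 0.80 ± 0.20 (adjusted p = 0.0244), and by 1.03 ± 0.20 against DSS crypts. Their part in the lower Msmo1 and Stard4 values was not tested.

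Tumor crypts were also compared with DSS crypts, the other epithelium exposed to DSS. This comparison shares the tumor arrays with the one before. Stard4 fell by 1.15 ± 0.21 (SE, 2.22-fold, limma adjusted p = 0.00624), the largest change among the 8 genes in the 3 comparisons, and passed in 19 of 19 settings. Msmo1 fell by 0.68 ± 0.17 (1.60-fold, adjusted p = 0.021). Its call ended when any 1 of the 4 tumor or DSS arrays was left out, with adjusted p-values of 0.0552 to 0.147. Hmgcs1 was lower on both tumor arrays than on either DSS array, and its change of -0.46 ± 0.17 did not pass (adjusted p = 0.0881). Its other probe sets gave -0.48, -0.39 and -0.45. It passed after median centring of the arrays (-0.69, adjusted p = 0.0465). The change of Fdps was 0.56 ± 0.37, with an interval of -0.30 to 1.42, and passed with the poly-A term (1.03, adjusted p = 0.0152). For Idi1, Fdft1, Sqle and Cyp51 the changes lay between -0.05 and 0.23 with adjusted p-values of 0.568 to 0.963. In all, 0 of the 8 genes were called higher and 2 lower, against 14.9% and 11.3% of all genes tested. The arrays did not overlap for 3 genes that were lower in tumor crypts, an order found for 30.7% of all genes tested.

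**Figure D2:**
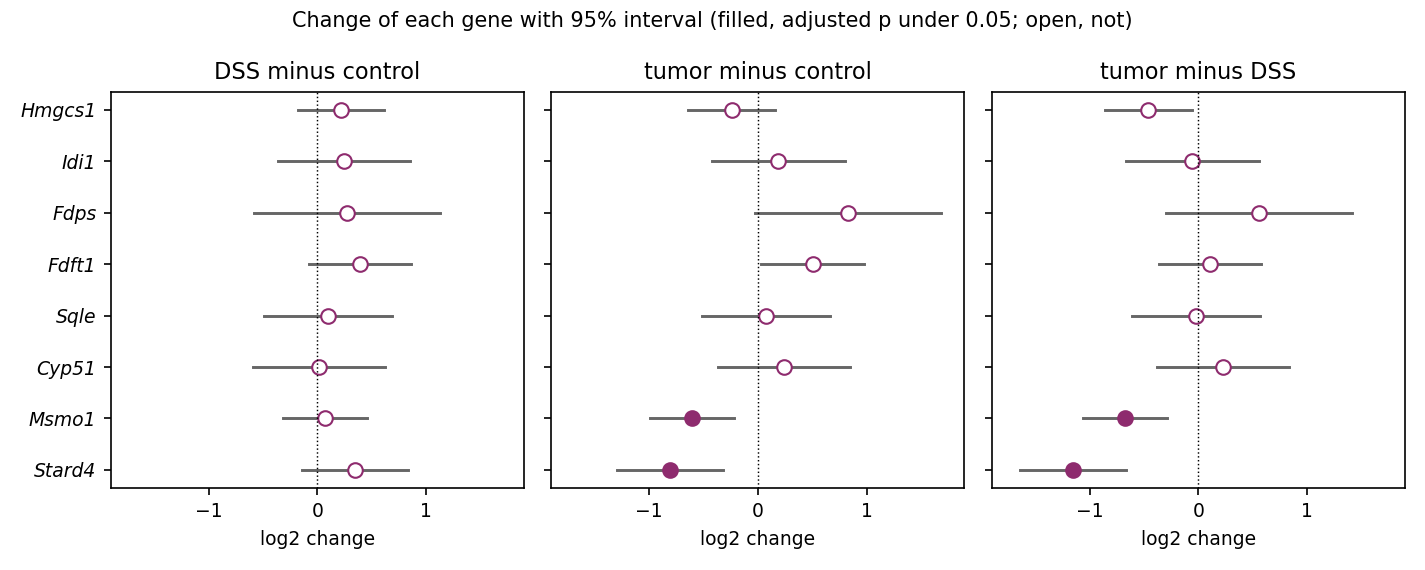
Log2 change of each gene in the 3 comparisons (x axis; points, fitted change; lines, 95% interval before adjustment over genes; filled points, adjusted p under 0.05). Msmo1 and Stard4 are filled and below 0 against both control and DSS crypts, no point is filled in DSS against control crypts, and Fdps has the widest intervals.

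On day 2 of DSS, no change passed in these genes. All 8 had fitted changes above 0, as did 3811 of the 7456 genes tested. They ran from 0.01 for Cyp51 to 0.39 for Fdft1, with a median of 0.23 against 0.00437 over all genes tested. Limma called 0 of the 8 and 0 of 7456 genes (0%) as higher, and 0 of the 8 had an unadjusted p under 0.05 on the tested probe set, against 187 of all genes tested. DSS and control arrays did not overlap for 2 of the 8, Hmgcs1 and Stard4, both higher, an order found for 12.8% of all genes tested. Hmgcs1 had a change of 0.22 and an interval of -0.18 to 0.62. Stard4 had 0.34 and -0.14 to 0.83, and its other probe set 0.46 (limma unadjusted p = 0.0354, adjusted p = 1.00). Fdft1 had 0.39, with an interval of -0.08 to 0.87, and 0.54 on its other expressed probe set (limma unadjusted p = 0.015, adjusted p = 1.00), where DSS arrays at 1690.2 and 1463 lay above control arrays at 1141 and 1019.

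Only 3 of the 8 genes (Hmgcs1, Fdft1 and Stard4) kept a DSS change above 0 in all 19 alternative settings. Those of Idi1, Fdps, Sqle and Cyp51 were below 0 without control replicate 2 and without DSS replicate 1, and that of Msmo1 when replicate 1 of control or of DSS was left out. The lowest values were -0.07, -0.25, -0.26, -0.34 and -0.11 in this order of genes. Between the arrays of high poly-A controls, DSS array 1 against control array 1, 7 of the 8 were above 0 with a median of 0.23. Between DSS array 2 and control array 2, both with low poly-A controls, 6 of the 8 were above 0 with a median of 0.23. The exceptions were Sqle at -0.04 in the first pair, and Cyp51 at -0.08 and Msmo1 at -0.18 in the second. These pairs are made of the same arrays as the fitted changes, so they are not separate evidence. Several of the genes also varied alike across arrays, as given below.

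Arrays of a group differed from each other in these genes. Array 1 was above array 2 for 7 of the 8 genes in control, 8 in DSS and 5 in tumor crypts, with median gaps of 0.49, 0.49 and 0.03 on the log2 scale, where the median over all genes tested was 0.01, -0.02 and -0.02. The gap of Fdps was 1.04 in control and 0.83 in DSS crypts, larger than that of 97.9% and 96.9% of the genes tested. For Sqle it was 0.71 and 0.44, for Idi1 0.61 and 0.63 and for Cyp51 0.53 and 0.71. Control array 1 and DSS array 1 had the higher poly-A controls and the lower sums of stromal markers given above, and the part of either in these gaps was not tested.

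**Figure D3:**
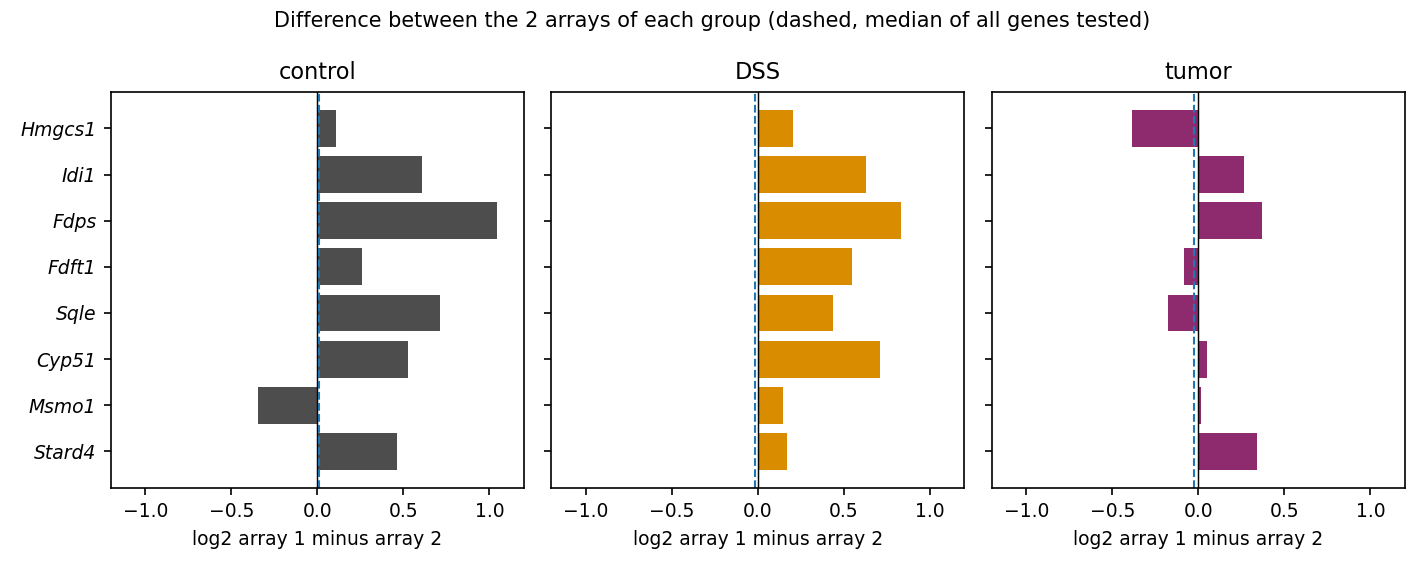
Log2 intensity of array 1 minus array 2 for each gene in control, DSS and tumor crypts (bars), with the median over all genes tested as a dashed line. The bars point to the right for 7 genes in control and 8 in DSS crypts, and for 5 in tumor crypts, where Hmgcs1, Fdft1 and Sqle point to the left.

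Across the 6 arrays, 2 sets of genes varied alike. Pearson's r over 6 arrays was 0.64 to 0.91 between any pair of Idi1, Fdps, Fdft1, Sqle and Cyp51. Msmo1 and Stard4 had r = 0.80 with each other, and 0.70 and 0.72 with Hmgcs1. With the first 5 genes, r was -0.68 to -0.18 for Msmo1, -0.27 to 0.27 for Stard4 and -0.27 to 0.36 for Hmgcs1. These points share arrays and the group differences and are given as a description. Over all genes tested, the 5 whose arrays most resembled the mean of the 8 were Lamp1, Frmd4b, Glud1, Bcar3 and Txndc5, with r of 0.96 to 0.99 over the 6 arrays. Lamp1, a membrane protein of the lysosome, measured 4391 and 3484 in control, 4823 and 3805 in DSS, and 4043 and 4001 in tumor crypts, with array 1 above array 2 in each group.

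Other genes of the pathway were read from 8 lists of 72 genes, of which 54 had a probe set of their own and 46 were tested. The counts below leave out Abcg1 and Fads1, which were above the array median on the tumor arrays alone and so entered the test only where they were high. In tumor against control crypts 8 of the other 44 rose and 3 fell, where 12.9% and 9.75% of all genes tested did, and the medians were 0.11 and 0.05. In synthesis itself, 0 of 3 other mevalonate genes and 0 of 8 other sterol ring genes passed, with medians of 0.23 and -0.03. The mevalonate decarboxylase Mvd, at 0.82 ± 0.31, had the smallest adjusted p of the first list, 0.0974. Tm7sf2, a sterol reductase, measured 631 and 573 in control, 631 and 471 in DSS, and 873 and 913 in tumor crypts. It rose by 0.69 ± 0.19 against DSS crypts (adjusted p = 0.0298) and did not pass against control (0.56, adjusted p = 0.0697). Its call against DSS ended in 5 of 19 settings, with quantile normalization (0.62), after centring arrays on their medians (0.46) and with DSS replicate 2 (0.49) or either tumor array (0.73 and 0.66) left out.

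Of 6 genes that control SREBP, 2 rose and 1 fell in tumor against control crypts, with the shares over all genes tested as above. Srebf2, which encodes SREBP2, measured 395 and 254 in control, 302 and 316 in DSS, and 485 and 672 in tumor crypts. It rose by 0.81 ± 0.25 against control with an adjusted p of 0.05 (0.049956 before rounding), a call that held in 4 of 18 settings and was lost without control replicate 2 (0.51), tumor replicate 2 (0.59) or either DSS array, and by 0.85 ± 0.25 against DSS (adjusted p = 0.0386, in 10 of 18 settings). Srebf1, the related factor of fatty acid synthesis, rose from 787 and 504 to 1123 and 2053, by 1.25 ± 0.30 (adjusted p = 0.0222), and the call ended without control replicate 2 (0.93) and without tumor replicate 2 (0.82). Erlin1, an endoplasmic reticulum protein that restrains SREBP activation, fell from 1335 and 1438 to 458 and 648, by 1.32 ± 0.20 (adjusted p = 0.00325), in 19 of 19 settings.

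Of 5 other sterol transfer genes, 1 fell against control crypts and 2 against DSS crypts, where 9.75% and 11.3% of all genes tested did. Stard5, a lipid carrier of the same family as Stard4, fell by 0.77 ± 0.21 against control (adjusted p = 0.0303, in 11 of 18 settings). Its call was lost without DSS replicate 1, tumor replicate 1 (-0.59) or either control array. It was also lost without the filter, with only the compared groups fitted and with probe sets averaged (-0.54, adjusted p = 0.0905). The fall of Stard5 against DSS crypts, by 0.67 ± 0.21 (adjusted p = 0.0449), held in 9 of 18 settings. Osbpl2, an oxysterol-binding protein, fell by 0.57 ± 0.16 against DSS (adjusted p = 0.0314), and its call was lost without any 1 of the 4 compared arrays (-0.64 to -0.51). Of 5 uptake and lysosomal genes, 1 rose against control crypts, where 12.9% of all genes tested did. It was Npc1, which exports cholesterol from lysosomes. Npc1 rose from 124 and 123 to 228 and 339.5, by 1.07 ± 0.26 (adjusted p = 0.0206, in 14 of 18 settings). Its call was lost without tumor replicate 2 (0.80), without either control array and with the poly-A term. Of 3 efflux genes counted, 2 rose against control crypts, with the same share of 12.9% over all genes tested. The efflux pump Abca1 measured 117 and 289 in control, 129 and 272 in DSS, and 889 and 1932 in tumor crypts, a rise of 2.71 ± 0.50 (adjusted p = 0.00676). Its partner Abcg1 measured 46.3 and 47.8 in control, 35.1 and 44.7 in DSS, and 191 and 415 in tumor crypts, given without a test for the reason above. Abcg5, a sterol exporter of the apical membrane, rose by 1.03 ± 0.26 (adjusted p = 0.0237, in 12 of 18 settings), and its call was lost without control replicate 2 (0.80) and without either tumor array. Leukocytes also use Abca1 and Abcg1. The summed leukocyte markers given above were higher in tumor crypts, mostly through Lyz2 and Cd14. Of 5 leukocyte markers tested, 4 had changes above 0 and 1 below 0 against control, with a median of 1.42. Lyz2 was higher by 3.89 ± 0.66 (adjusted p = 0.00469). Csf1r at 1.42 ± 0.80 and Tyrobp at 1.51 ± 0.85 did not pass, and Ptprc was at -0.03 ± 0.67. Of the 10 leukocyte markers, 3 and 7 lay above the array median on the tumor arrays, against 3 and 5 on the control arrays. The part of leukocytes in these rises was not tested.

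The neighbouring fatty acid list had 3 of 8 genes counted higher and 1 lower in tumor against control crypts. Over all genes tested the shares were 12.9% and 9.75%. Fads1, a fatty acid desaturase, measured 72.1 and 69.3 in control, 68.2 and 82.4 in DSS, and 389.5 and 825 in tumor crypts, likewise without a test. Scd1, another desaturase, rose by 2.28 ± 0.38 (adjusted p = 0.00432). Acss2, which makes acetyl-CoA from acetate, fell from 2442.5 and 2401 to 1072 and 803, by 1.37 ± 0.19 (adjusted p = 0.0022), in 19 of 19 settings. Against DSS crypts, Scd1 rose by 1.87 and Acss2 fell by 1.61. Among 6 genes of the isoprenoid branch, which diverts intermediates to protein prenylation and other products, 0 passed in any comparison (limma, 0 at an unadjusted p under 0.05). In DSS against control crypts 0 of the 46 passed, and 0 had an unadjusted p under 0.05, with a median of 0.05. In tumor against DSS crypts 7 of the 44 rose and 5 fell, where 14.9% and 11.3% of all genes tested did, and the medians were 0.05 and 0.04.

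**Figure D4:**
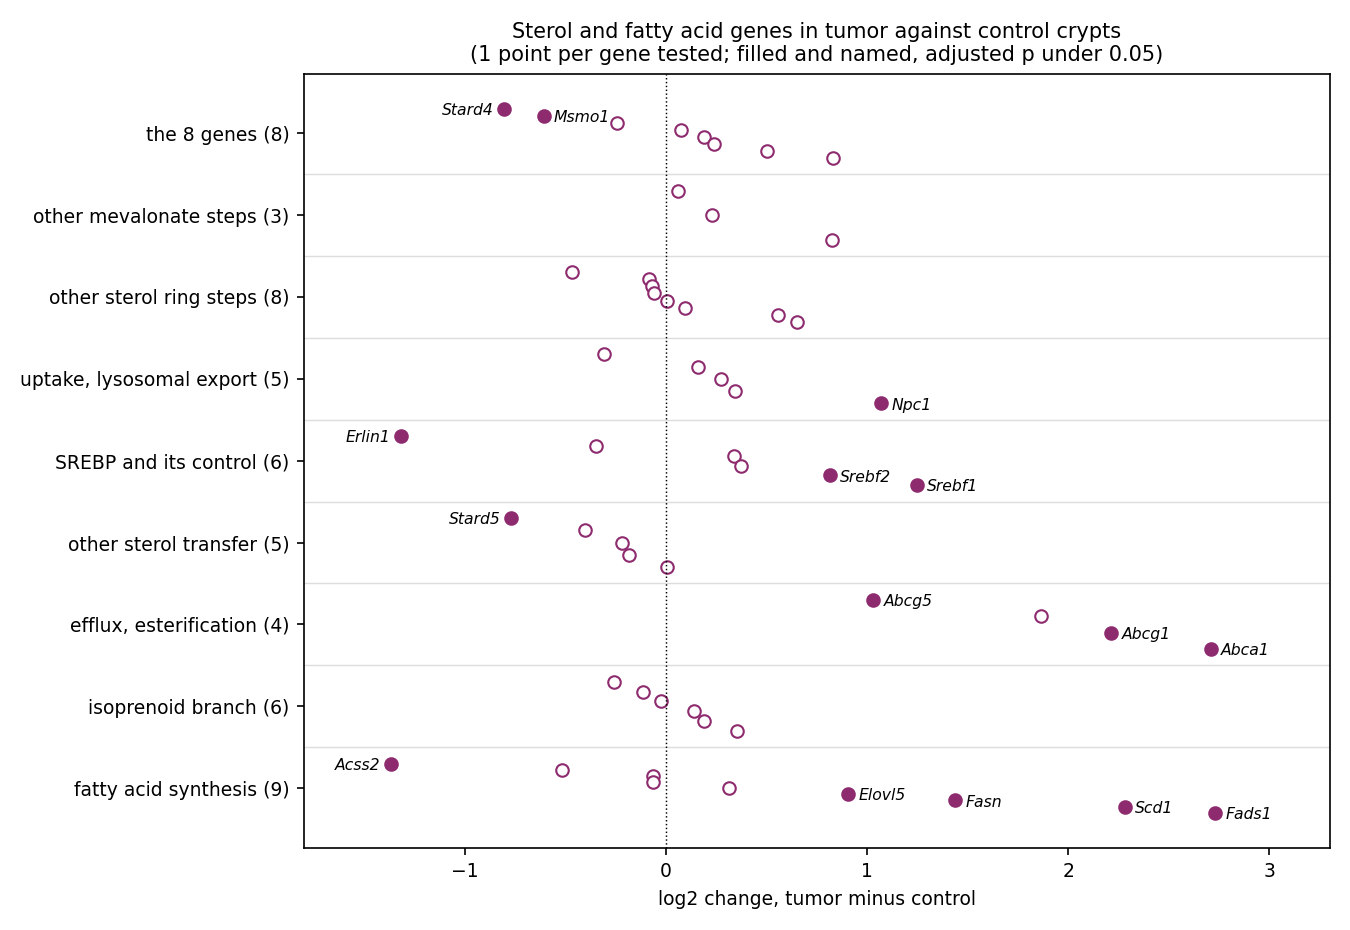
Log2 change in tumor against control crypts (x axis) of each tested gene of the 8 and of 8 neighbouring lists, with the number tested in brackets and genes with an adjusted p under 0.05 filled and named. Among synthesis enzymes Msmo1 is filled, at -0.61, and the open points include Fdps at 0.83 and Mvd at 0.82, while Abca1, Abcg1, Scd1 and Fads1 lie above 2. Abcg1 and Fads1 were kept through their tumor arrays and are not counted in the text.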

How the data were processed

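The deposited values are MAS5 signal intensities on a linear scale, with 1 value per probe set and array. Per the submitters' processing notes MAS5 made them; its version is not given in the sources used here. The trimmed mean of every array, without the top and bottom 2% of probe sets, was near 500.2. From the 22690 probe sets, 64 controls were set aside, and 20380 had 1 gene symbol in the platform's annotation, 691 several and 1555 none.

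Values were transformed as log2 of intensity plus a pseudocount of 17.7 (25th percentile over the 6 arrays), so changes of low genes are understated. A probe set was kept if 2 or more arrays had it above the array median, and the one with the highest mean stood for its gene (7456 genes). All 3 groups were fitted in limma 3.58.1 (R 4.3.3) with an intensity trend and Benjamini-Hochberg adjustment over all genes tested, at a threshold of 0.05, 2-sided. A second fit tested every probe set on its own. The fit was tested on simulated data. With 2 arrays a group, an exact permutation test cannot reach the threshold and was not used.

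The genes and lists were chosen with earlier results of these data known. Named pathway genes were up to 3 called genes of smallest p per list and comparison, plus Insig1, Srebf1, Srebf2 and Abca1, with some genes of that rule not reported here; the 5 genes most like the 8 had the highest r to their mean. Mvd and the markers named were chosen after their values were seen. The 19 alternatives covered scaling, pseudocount, filter, probe sets, trend, blocks, groups fitted and each array left out. Figures used Python 3.11.15 and matplotlib 3.10.9.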

Additional observations from a re-analysis of the deposited data

How the results depend on the processing

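Of 456 recomputed changes of the 8 genes, 400 kept direction and side of the threshold, 17 calls ended, 10 values newly passed and 29 changed sign. No sign change touched a call. Of 494 recomputed changes of called pathway genes, 413 kept both, 81 calls ended and 0 changed sign. These totals include Abcg1 and Fads1, which entered the test through their tumor arrays. Each was called in 16 of 16 settings in both tumor comparisons, so the totals overstate how well the other calls held. The number of arrays, 2 a group, limits the precision, and the 4 dim probe sets are too near background to be read.

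Called genes among the 8, 2 in tumor against control crypts, were 1 without the filter, without an intensity trend and with only the compared groups fitted, and 0 to 2 with an array left out. Against DSS crypts they were 1 to 2 with an array left out. In DSS against control crypts they were 0 in every setting. Other pathway genes called, 13 against control, were 8 with the 75th percentile filter, which tests fewer genes, and 5 to 12 with an array left out. Those called against DSS, 14, were 5 to 13. Both counts hold Abcg1 and Fads1; without them, an alternative chosen after seeing the data, they were 11 and 12. The cause of the other shifts was not tested.

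Replicate numbers are shared by the groups. The labels do not state that they mark a shared batch, so the main fit did not take them as pairs. Deviations of arrays numbered alike correlated at 0.45 (control and DSS), 0.08 (control and tumor) and 0.44 (DSS and tumor). Control and DSS arrays numbered alike had r of 0.983 and 0.986, against 0.971 between the control arrays and 0.978 between the DSS arrays. Whether the numbers mark a batch was not tested. In another setting the replicate number was a block in the 2 groups compared. Against DSS, 4 of the 8 genes then passed (Hmgcs1 and Fdps besides Msmo1 and Stard4), where 2942 of the 7456 genes tested did. Against control, Msmo1 lost its call (limma adjusted p = 0.0925) while Fdps gained one (limma adjusted p = 0.0166), where 1639 of the 7456 passed. In DSS against control crypts 121 genes in all passed, against 0 without the block. With the block in the fit of 3 groups Fdps passed against control (adjusted p = 0.0223).

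Centring each array on its median moved the median change of all genes in tumor against control crypts from 0.05 to -0.20 and turned 959 higher and 727 lower calls into 649 and 1225. Relative to these medians, the changes against control turned to -0.060 for Idi1, -0.17 for Sqle and -0.00844 for Cyp51, and against DSS to -0.00923 for Cyp51 and -0.13 for Fdft1. Averaging probe sets gave -0.0035 for Idi1 against control. Against DSS, Idi1 was at 0.055 with quantile normalization and 0.25 with a term for high poly-A controls, which gave 0.27 for Sqle.

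With an array left out, DSS changes spanned -0.34 to 0.37 for Cyp51, -0.25 to 0.79 for Fdps, -0.070 to 0.56 for Idi1, -0.11 to 0.24 for Msmo1, -0.26 to 0.45 for Sqle. Changes against control spanned -0.023 to 0.50 for Cyp51, -0.11 to 0.49 for Idi1, -0.28 to 0.43 for Sqle. Changes against DSS spanned -0.13 to 0.58 for Cyp51, -0.16 to 0.38 for Fdft1, -0.37 to 0.26 for Idi1, -0.24 to 0.20 for Sqle.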
